A study of Mus musculus with 10 samples.

Results

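The transporters described here are the 104 mouse genes, measured with 190 of the 56605 non-control probes of an Agilent array, whose symbols belong to 10 solute carrier families: Slc1a, Slc2a, Slc3a, Slc5a, Slc6a, Slc7a, Slc15a, Slc16a, Slc36a and Slc38a. They were chosen by symbol alone and sorted by substrate into 12 groups, with Slc6a21 left unsorted. RNA was compared on 10 arrays with 2 dyes each, of which 4 held whole colon and 6 held organoids, gel cultures of colon epithelium. KO tissue came from 2 male Axin2CreERT2 mice crossed with Trp53 fl/fl mice and WT tissue from 2 mice labelled WT; Axin2CreERT2 is a recombinase that tamoxifen switches on in cells expressing Axin2, so that other cells of the tissue may keep Trp53. Per the labels, tamoxifen was injected for knock-out induction, and both arms drank 2% dextran sodium sulfate (DSS), which injures the colon lining, for 5 to 7 days and were sampled 2 months later. Each KO mouse was hybridised against the WT mouse of the same number in both dye orientations. KOWI organoids (2 samples) lacked Trp53, are named Wnt-independent by the labels and were kept in a medium without surrogate Wnt (sWnt) and CHIR-99021. KO organoids (2 samples) and WT organoids (2 samples) were kept in full medium with 0.328 nM sWnt, 3 µM CHIR-99021, 25% R-spondin 1 conditioned medium, 100 ng/ml noggin, 50 ng/ml EGF and 0.5 µM A83-01. KO cultures were made from VillinCreERT2xTrp53fl/fl mice, in which the recombinase acts in gut epithelium, with 800 nM 4OH-tamoxifen for 2 days, and were selected with Nutlin-3A. KOWI therefore differed from WT in both Trp53 and medium, and from KO in medium and in any adaptation to it or selection in it, which cannot be told apart.

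The study's design text calls the 2 replicates independent, but no label ties organoid replicates to separate mice, and the organoid p-values therefore cover the spread between these cultures alone. All replicates numbered 1 carried Cy3 and all numbered 2 carried Cy5, which confounds dye with replicate in organoids. The array software marked 13.9% to 16.3% of spots as outliers on the 4 arrays with KOWI RNA, against 1.27% and 2.65% on the organoid arrays of KO against WT and 1.94% to 5.12% on the tissue arrays. Outlier spots were left out of ratios and levels, but were counted when a channel was called above background. Trp53, the targeted gene, was well above background in 0 of 4 KOWI channels, 0 of 4 KO channels and 4 of 4 WT channels of the organoids. Its log2 ratio was -0.79 for KOWI over WT (limma adjusted p = 0.0852), -0.83 for KO over WT (limma adjusted p = 0.61) and, in tissue, -0.46 and 0.04 in the 2 mouse pairs (limma adjusted p = 0.615). Whether its probe lies in the deleted stretch was not checked. All 8 epithelial markers were above background in every group. The 8 skeletal muscle markers and 5 of 6 markers of cornified skin were also above background in KO and WT tissue. In organoids 0 of 6 fibroblast markers were above background in all channels of any group, but some markers of other cell types were. Skeletal muscle had 4 of 8 in KOWI, 2 in KO and 2 in WT organoids, and cornified skin had 4, 2 and 3 of 6. Every KOWI channel lay on the arrays with most outlier spots, but only some KO and WT channels did. The part of this in the marker counts was not tested. Macrophages had 3 of 4 in each organoid group.

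Solute carriers move small molecules across membranes. In gut epithelium, carriers on the brush border take nutrients up from the lumen, many of them driven by sodium or proton gradients, and carriers on the basolateral side pass them on to the blood. The colon absorbs little sugar or amino acid from food, but its surface cells take up short-chain fatty acids such as butyrate, made by bacteria, and use them as fuel. All proliferating cells also need carriers for glucose, glutamine, essential amino acids and cystine, and several of the genes that encode these are targets of ATF4, the transcription factor of the amino acid shortage response, and of MYC, which binds E-boxes.

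Promoters of 5 transporters are shown. Slc6a19 and Slc5a8 had the lowest KOWI over WT ratios that passed the test, and Slc7a6 had the highest. Slc16a1 and Slc7a11, carriers of butyrate and cystine, were called in no comparison and were picked because their windows held a searched motif. Windows of other transporters that held one are not shown. Each window runs 5′ to 3′ from 250 bases before to 50 bases after the RefSeq start on build GRCm38.p6, and capitals mark a match to CACGTG (an E-box, bound by MYC among others) or to TGATGNAAN (the C/EBP-ATF element that ATF4 binds), on either strand. The Slc6a19 window is at chr13:73692587-73692886 on the minus strand, that of Slc5a8 at chr10:88885742-88886041 on the plus strand, and the first of the 2 Slc7a6 windows at chr8:106168604-106168903 on the plus strand. The Slc16a1 window is at chr3:104638414-104638713 on the plus strand and the Slc7a11 window at chr3:50443564-50443863 on the minus strand.
Slc6a19: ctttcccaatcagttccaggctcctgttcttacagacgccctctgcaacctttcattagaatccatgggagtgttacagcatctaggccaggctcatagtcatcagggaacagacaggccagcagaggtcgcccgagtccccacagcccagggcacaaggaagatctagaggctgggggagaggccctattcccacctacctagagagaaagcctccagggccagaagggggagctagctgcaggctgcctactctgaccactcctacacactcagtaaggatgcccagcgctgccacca
Slc5a8: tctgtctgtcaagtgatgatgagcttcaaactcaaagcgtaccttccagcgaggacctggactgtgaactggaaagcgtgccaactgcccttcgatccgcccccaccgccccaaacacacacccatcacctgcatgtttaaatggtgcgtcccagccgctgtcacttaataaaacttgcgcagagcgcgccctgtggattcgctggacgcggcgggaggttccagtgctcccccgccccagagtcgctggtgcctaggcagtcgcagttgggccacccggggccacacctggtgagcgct
Slc7a6: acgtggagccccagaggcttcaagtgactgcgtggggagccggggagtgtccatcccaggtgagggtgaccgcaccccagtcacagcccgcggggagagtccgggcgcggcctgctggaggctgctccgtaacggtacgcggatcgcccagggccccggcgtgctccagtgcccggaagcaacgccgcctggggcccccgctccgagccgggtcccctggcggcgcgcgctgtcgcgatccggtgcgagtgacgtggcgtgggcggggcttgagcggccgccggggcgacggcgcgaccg
Slc16a1: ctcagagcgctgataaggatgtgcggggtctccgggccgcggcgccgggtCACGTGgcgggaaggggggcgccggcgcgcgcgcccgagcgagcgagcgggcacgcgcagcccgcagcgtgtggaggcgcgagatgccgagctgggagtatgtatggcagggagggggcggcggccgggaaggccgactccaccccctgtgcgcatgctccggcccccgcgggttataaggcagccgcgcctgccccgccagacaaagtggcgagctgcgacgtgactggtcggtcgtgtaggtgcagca
Slc7a11: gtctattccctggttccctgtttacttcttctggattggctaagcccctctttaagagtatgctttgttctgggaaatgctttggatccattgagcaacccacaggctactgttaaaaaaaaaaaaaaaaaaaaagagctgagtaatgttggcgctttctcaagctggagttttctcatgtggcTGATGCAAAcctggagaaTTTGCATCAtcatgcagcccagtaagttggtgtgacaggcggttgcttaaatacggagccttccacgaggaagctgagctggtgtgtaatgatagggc
RefSeq held a window for 76 of the 104 transporters, 98 windows in all. An E-box lay in 11.2% of these 98 windows, against 7.15% of all 32851 promoter windows. The C/EBP-ATF element lay in 6.12% against 3.95%, and CTTTGAT, the core bound by TCF/LEF factors of the Wnt pathway, in 5.1% against 3.73%. CTTTGAT ends in the letters TGAT with which TGATGNAAN begins, so matches to these can overlap. The E-box of Slc16a1 starts at position -200, and the 2 C/EBP-ATF elements of Slc7a11, one on each strand, start at -66 and -48. None of the 3 motifs was found in the windows of Slc6a19, Slc5a8, Slc15a1, Slc2a5, Slc38a6 or Slc7a6, the 6 of 8 called transporters that have a window. Such a match is a description of letters only.

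Of the 104 transporters, 67 were measured above background in at least 1 group, meaning in all 4 channels of that group, and 37 were in neither experiment. Those 37 include Slc2a2, the basolateral glucose carrier of small intestine and liver, the brain glutamate carriers Slc1a2 and Slc1a3, and the GABA carriers Slc6a11, Slc6a12 and Slc6a13. In tissue 54 passed, of which 50 could be fitted and 4 (Slc7a8, Slc38a7, Slc38a8 and Slc38a9) were lost to outlier spots. In organoids 59 passed, of which 39 were fitted and 20 were lost. The 46 transporters found in both include the main carriers of glucose (Slc2a1), glutamine (Slc1a5), lactate and butyrate (Slc16a1) and the shared heavy chain Slc3a2. Found in tissue alone were 8, among them Slc15a3, Slc16a9, Slc16a12, Slc2a3 and Slc6a17. Found in organoids alone were 13, among them Slc6a19, Slc3a1, Slc2a9, Slc7a3 and Slc7a5. Channels were called above background with outlier spots counted. Of the 13, Slc2a8, Slc5a2, Slc6a3, Slc7a5, Slc7a14 and Slc16a7 could not be fitted in organoids once those spots were left out, so their detection rests in part on outlier spots. Slc6a19, the neutral amino acid carrier of the brush border, was above background in 0 of 4 KO and 0 of 4 WT tissue channels, but in all 4 KO and all 4 WT organoid channels. Tissue and organoid arrays were separate slides with separate scans, so levels were not compared across them.

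In KOWI organoids, 6 of 39 fitted transporters were called lower than in WT and 2 higher, against 4.48% of all genes called either way, with called meaning a limma p under 0.05 after Benjamini-Hochberg adjustment over all 10492 genes fitted. The 6 include the brush border carriers of neutral amino acids (Slc6a19) and short peptides (Slc15a1) and the colonocyte carrier of butyrate (Slc5a8), with Slc2a5, Slc6a8 and Slc38a6, and the 2 are Slc7a6 and Slc16a6. Over all genes, 1.76% were called lower and 2.72% higher. The log2 ratio was below 0 for 28 of the 39, against 47.9% of all genes, and the median was -0.30 against 0.02. Both replicate ratios were under -0.5 for 13 transporters, against 5.6% of all genes, and over 0.5 for 2, against 9.24%, and 15 had an unadjusted p under 0.05, against 22.4%. For KOWI over KO, 1 transporter was called lower (0.229% of all genes) and 0 higher (0.105%), 31 of 39 ratios were below 0 (55.3% of all genes) and the median was -0.42 against -0.03. Both replicate ratios were under -0.5 for 9 (4.12% of all genes) and over 0.5 for 2 (4.08%), and 18 had an unadjusted p under 0.05 (13.7%). For KO over WT in organoids 0 of 39 were called by limma (0% of all genes), with 5 at an unadjusted p under 0.05 (5.25% of all genes) and a median of -0.01 against 0.05; both replicate ratios were under -0.5 for 4 (0.848% of all genes) and over 0.5 for 0 (2.41%). In tissue 0 of 50 were called by limma (0% of all genes), with 12 at an unadjusted p under 0.05 (14.8% of all genes), 29 ratios below 0 (51.2% of all genes) and a median of -0.01 against 0. The 3 organoid comparisons share samples and are not independent of one another.

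The KOWI over WT calls depended on the outlier spots and on single samples. With outlier spots kept, 1 of the 8 calls was made, Slc6a19 (limma adjusted p = 0.036), while its log2 ratio was the same, -2.99; over all alternatives its adjusted p ran from 2.53e-05 to 0.0754. Leaving out 1 sample gave 3 calls without KOWI 1 (214 of all 9140 genes fitted), 0 without KOWI 2 (0 of 8826), 11 without KO 1 (806 of 7921), 2 without KO 2 (114 of 7909), 3 without WT 1 (80 of 8318) and 1 without WT 2 (92 of 8494). With outlier spots kept, 6 of all 14660 genes fitted were called, against 470 of 10492 without them.

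**Figure D1:**
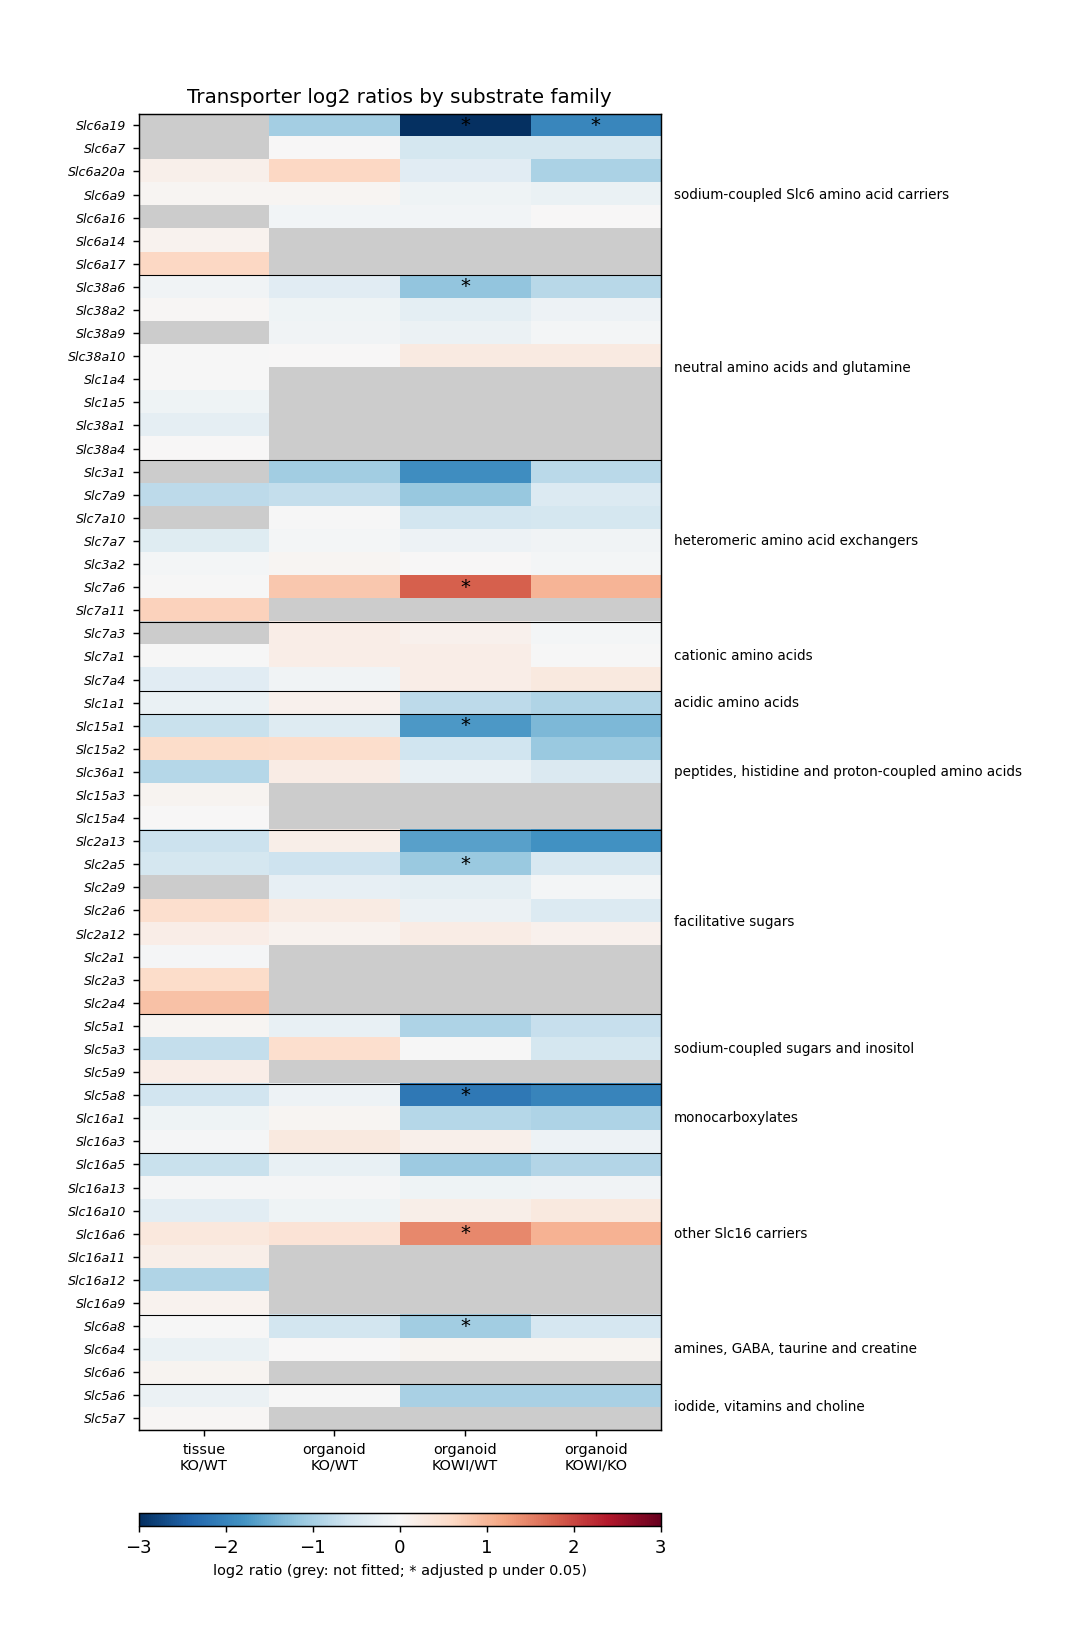
Heat map of the log2 ratios of 57 transporters fitted in tissue, organoids or both, in the comparisons KO over WT in tissue and KO over WT, KOWI over WT and KOWI over KO in organoids, grouped by substrate. Blue is lower and red higher in the first-named group, grey was not fitted, and asterisks mark adjusted p under 0.05: 8 in KOWI over WT and 1, Slc6a19, in KOWI over KO.

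Levels below are fitted log2 levels: the log2 of background-corrected, normalised intensity, solved for each organoid sample from the arrays it was on. A difference of 1 is a 2-fold change, each group has n = 2, and levels are not comparable between genes because probes differ. Among the sodium-coupled amino acid carriers of family Slc6, Slc6a19 fell furthest. Its level was 7.30 and 7.75 in KOWI organoids, 9.23 and 9.74 in KO organoids and 10.28 and 10.75 in WT organoids. Every KOWI sample lay below every KO sample, and every KO sample below every WT sample. The log2 ratio was -2.99 for KOWI over WT (SE 0.16, 7.94-fold lower, limma adjusted p = 0.00768), with -2.98 and -3 in the 2 replicates. For KOWI over KO it was -1.96 (SE 0.16, 3.88-fold lower, limma adjusted p = 0.0296), the only transporter called in that comparison. This call was lost in 9 of 15 alternatives (limma adjusted p up to 0.35), among them outlier spots kept and no replicate block. For KO over WT it was -1.05 and -1.02 in the 2 replicates, the lowest adjusted p of any transporter there but above 0.05 (limma adjusted p = 0.349). The probe was above background in 2 of 4 KOWI channels, and it lies on mm9 chromosome 13 from 73818718 to 73818777. A transcript antisense to it, Slc6a19os, has its own name on the array.

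The other Slc6 amino acid carriers did not pass the test. Slc6a20a, the proline carrier, had levels of 7.16 and 7.14 in KOWI, 8.49 and 7.71 in KO and 7.28 and 7.69 in WT organoids; KOWI lay below the others, and KO lay above WT, KO 2 only just above WT 2. It was above background in 1 of 4 KOWI channels. Its KOWI over KO ratio was -0.95 (limma adjusted p = 0.267); the near-identical copy Slc6a20b, which its probe may share, was not above background. Slc6a9, the glycine carrier, was nearly level, at 14.85 and 14.87 in KOWI, 15.01 and 15.09 in KO and 14.93 and 15.04 in WT organoids. Slc6a14, which takes up neutral and cationic amino acids, was lost to outlier spots. With those spots kept its levels were 10.07 and 9.74 in KOWI, 11 and 11 in KO and 11.14 and 11.74 in WT organoids, so that KOWI lay lowest in both replicates (KOWI over WT -1.07 and -2.00, limma adjusted p = 0.103). In tissue the same probe gave KO over WT of 0.22 and -0.03. Slc6a17, a carrier of synaptic vesicles, was the highest Slc6 amino acid carrier by KO over WT ratio in tissue, at 0.93 and 0.33 in the 2 pairs (limma adjusted p = 0.35). Slc6a7, a proline carrier of the brain fitted without KOWI 2, and Slc6a16 were dim, and their KOWI over WT ratios were -0.53 and -0.08. With outlier spots kept, Slc6a7 changed sign, to 0.34, and Slc6a16 was at -0.28.

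Of the carriers of neutral amino acids and glutamine, 1 of 4 fitted in organoids was called. Slc38a6, a member of the Slc38 family of neutral amino acid carriers, had levels of 8.81 and 9.19 in KOWI, 9.91 and 9.75 in KO and 10.21 and 10.15 in WT organoids. The groups did not overlap, and KO lay between KOWI and WT. The log2 KOWI over WT ratio was -1.18 (SE 0.20, 2.26-fold lower, limma adjusted p = 0.0438). Its other probes moved less, with -0.41 and 0.00, both fitted with outlier spots kept; the probe used is on mm9 chromosome 12 from 74454973 to 74455032. Slc38a2, the glutamine carrier that rises when amino acids run short, had 13.65 and 13.50 in KOWI, 13.68 and 13.79 in KO and 13.91 and 13.84 in WT organoids (KOWI over WT -0.30, limma adjusted p = 0.387). Slc38a9, an arginine sensor of the lysosome, and Slc38a10 were fitted without KOWI 1 and gave -0.17 and 0.27. With outlier spots kept they were at -0.17 and -0.06. Their second probes, fitted without outlier spots, gave -0.45 and -0.41. Slc1a4, Slc1a5 and Slc38a1, the other bright carriers of this group, were lost in organoids, and with outlier spots kept their KOWI over WT ratios were -0.11, 0.10 and 0.19. In tissue the 7 fitted members lay between -0.27 and 0.04, the narrowest range of any group with more than 3 fitted members: Slc1a4 was at -0.01, Slc1a5 at -0.13 and Slc38a1 at -0.27.

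The heteromeric exchangers, each a light chain joined to a heavy chain, split. Slc7a6, the basolateral light chain that exports arginine in exchange for neutral amino acids, had levels of 12.30 and 11.65 in KOWI, 11.36 and 10.58 in KO and 10.88 and 9.47 in WT organoids. Within each replicate KOWI was highest and WT lowest, and both KOWI samples exceeded every other sample. KOWI over WT gave a log2 ratio of 1.8 (SE 0.24, 3.49-fold higher, limma adjusted p = 0.028), with 1.43 and 2.18 in the 2 replicates, and its second probe gave 0.87. KO over WT was 0.48 and 1.11 (limma adjusted p = 0.793) and KOWI over KO was 0.95 and 1.07 (limma adjusted p = 0.152). The probe is on mm9 chromosome 8 from 108721796 to 108721855, and the overlapping gene Slc7a6os has its own name on the array. Slc7a7, the basolateral light chain with the same exchange and the gene mutated in lysinuric protein intolerance, had 15.40 and 15.28 in KOWI, 15.45 and 15.45 in KO and 15.53 and 15.48 in WT organoids. Slc3a2, the heavy chain both need, had 14.35 and 14.45 in KOWI, 14.40 and 14.49 in KO and 14.41 and 14.35 in WT organoids. Neither differed detectably (KOWI over WT -0.16 and 0.02, limma adjusted p = 0.638 and 0.974), but the dimmest of the 3 Slc3a2 probes gave 0.62.

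The apical pair of this group, Slc3a1 and Slc7a9, takes up cystine and cationic amino acids and is mutated in cystinuria. Slc3a1 had levels of 9.51 and 11.38 in KOWI, 11.52 and 11.01 in KO and 11.78 and 12.82 in WT organoids. Both WT samples were highest, but KOWI 2 lay above KO 2, and the KOWI over WT ratio of -1.86 did not pass the test (limma adjusted p = 0.126). Slc7a9 had 9.19 and 10.28 in KOWI, 10.03 and 10.28 in KO and 10.62 and 11.11 in WT organoids; KOWI over WT was -1.13 (limma adjusted p = 0.0677), and its second probe gave -0.22. KO over WT for Slc3a1 averaged -1.04 over organoid replicates of -0.27 and -1.82. With outlier spots kept it averaged -0.65 over -1.06 and -0.23, so that a different replicate was the lower one. With outlier spots left out, KO over WT was -0.71 for Slc7a9 in organoids, and in tissue Slc7a9 had -1.21 and -0.35 in the 2 pairs (limma adjusted p = 0.376). Slc7a11, the exchanger of cystine for glutamate whose promoter is shown above, had 10.38 and 10.74 in KO and 9.12 and 10.59 in WT tissue, a gap in pair 1 of 1.25 and in pair 2 of 0.14 (limma adjusted p = 0.46). In organoids its second probe, fitted without outlier spots, gave 0.74 for KOWI over WT. The probe used was lost to outlier spots and gave 0.31 with them kept. Slc7a5, the large neutral amino acid light chain, and Slc7a8 gave -0.21 and 0.40 on the same terms. Slc7a10, a carrier of small neutral amino acids, was at -0.55 in the fit without outlier spots (limma adjusted p = 0.145), from a probe above background in 1 of 4 KOWI channels. The probe for Slc7a5 was not above background in all channels of either tissue group.

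Cationic and acidic amino acid carriers had no calls. Slc7a1, the arginine and lysine carrier of most cells, had 14.80 and 15.42 in KOWI, 15.46 and 14.78 in KO and 15.31 and 14.54 in WT organoids. Its groups overlapped, and KOWI over WT went opposite ways in the 2 replicates (-0.51 and 0.88). Slc7a4 had 12.53 and 12.65 in KOWI, 12.41 and 12.18 in KO and 12.39 and 12.42 in WT organoids (KOWI over WT 0.19, limma adjusted p = 0.62). Slc1a1, the apical glutamate and aspartate carrier and the 1 acidic amino acid carrier of 5 that was above background, had 7.13 and 7.79 in KOWI, 8.70 and 8.04 in KO and 8.18 and 8.31 in WT organoids. Both KOWI samples lay below all others (KOWI over WT -0.79, limma adjusted p = 0.24), but a second probe gave 0.22. With outlier spots kept the ratio was -0.51, and KOWI 2, at 8.29, lay above KO 2 and WT 1, both at 8. The dim cationic carrier Slc7a3 was at 0.14 for KOWI over WT. In tissue Slc1a1 was at -0.27 and -0.12 and Slc7a4 at -0.42 and -0.27 in the 2 pairs.

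Among carriers of peptides, histidine and proton-coupled amino acids, Slc15a1, the proton-coupled carrier of short peptides in the brush border, fell in KOWI organoids. Its level was 7.93 and 7.87 in KOWI, 9.11 and 9.38 in KO and 9.51 and 9.74 in WT organoids. Both KOWI samples lay more than 1 log2 unit below all others, and KO lay below WT without overlap. The log2 KOWI over WT ratio was -1.73 (SE 0.18, 3.31-fold lower, limma adjusted p = 0.0213), with -1.59 and -1.87 in the 2 replicates, from a probe on mm9 chromosome 14 from 121869878 to 121869937 that was above background in 3 of 4 KOWI channels. KOWI over KO was -1.34 (limma adjusted p = 0.0665) and KO over WT -0.39 (limma adjusted p = 0.978). Slc15a2, the high-affinity peptide carrier, had 7.34 and 7.61 in KOWI, 8.52 and 8.67 in KO and 7.27 and 8.88 in WT organoids, with the WT samples on either side of the other groups. Slc36a1, the proton-coupled carrier of glycine, alanine and proline, had 8.49 and 8.44 in KOWI, 8.98 and 8.84 in KO and 8.63 and 8.75 in WT organoids (KOWI over WT -0.23, limma adjusted p = 0.516). The lysosomal carrier Slc15a4 was at 0.22 for KOWI over WT with outlier spots kept, and at -0.03 and 0.03 for KO over WT in the tissue pairs.

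Among facilitative sugar carriers, Slc2a5, the fructose carrier, was lower in KOWI organoids. Its level was 7.20 and 6.67 in KOWI, 7.62 and 7.23 in KO and 8.34 and 7.77 in WT organoids, so that KOWI was lowest and WT highest within each replicate and both WT samples lay above all others. KOWI over WT gave a log2 ratio of -1.12 (SE 0.17, limma adjusted p = 0.0328). It was not well above background in any KOWI channel, and against the lowest detectable signal of the same 2 arrays it was at least 2.06-fold lower than in WT. In the bound, an array's dim level is the higher of its own signal and the lowest signal well above background. The probe is on mm9 chromosome 4 from 149517775 to 149517834. In tissue the KO over WT ratio of Slc2a5 was -0.63 and -0.44 in the 2 pairs, and in organoids -0.72 and -0.54 in the 2 replicates, neither called (limma adjusted p = 0.26 and 0.686). Slc2a13, the proton-coupled myo-inositol carrier, had 7.42 and 7.09 in KOWI, 8.82 and 9.30 in KO and 8.39 and 9.40 in WT organoids. Both KOWI samples lay below all others, while KO and WT overlapped, and its probe was above background in 2 of 4 KOWI channels. The ratios of -1.64 for KOWI over WT and -1.81 for KOWI over KO did not pass the test (limma adjusted p = 0.0602 and 0.0985).

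The carriers that supply most cells with glucose showed no calls. Slc2a1 was lost to outlier spots in organoids and had a KOWI over WT ratio of -0.15 and -0.29 with them kept; in tissue it had 16.93 and 17.01 in KO and 17.00 and 17.01 in WT mice. Slc2a12 had 9.74 and 9.58 in KOWI, 9.61 and 9.45 in KO and 9.65 and 9.21 in WT organoids, and Slc2a6 had 10.02 and 8.81 in KOWI, 10.00 and 9.66 in KO and 9.64 and 9.54 in WT organoids. Slc2a9, the urate carrier, lay between 7.30 and 7.83 in all 6 samples. The groups of all of these overlapped or nearly touched.

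Sodium-coupled sugar and inositol carriers had no calls either. Slc5a1, the apical glucose carrier, had levels of 9.30 and 9.79 in KOWI, 10.31 and 10.17 in KO and 10.42 and 10.51 in WT organoids. The 3 groups did not overlap, and KOWI over WT was -0.92 (SE 0.21, limma adjusted p = 0.0768). In tissue Slc5a1 was at 11.18 and 11.68 in KO and 11.11 and 11.63 in WT mice, a difference of 0.07 and 0.05 in the 2 pairs. Slc5a3, the sodium-coupled myo-inositol carrier, had 9.34 and 7.72 in KOWI, 8.97 and 9.14 in KO and 8.46 and 8.64 in WT organoids, with the KOWI samples on either side of the rest. With outlier spots kept its KOWI levels were 10.11 and 9.23, within the range of the rest. In tissue it had 8.11 and 8.79 in KO and 8.97 and 9.36 in WT mice (KO over WT -0.87 and -0.57, limma adjusted p = 0.26).

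Among monocarboxylate carriers, Slc5a8, the sodium-coupled carrier that takes up butyrate and lactate at the apical side of colonocytes, fell in KOWI organoids. Its level was 8.14 and 8.41 in KOWI, 10.5 and 10.05 in KO and 10.36 and 10.49 in WT organoids. The KOWI samples lay more than 1 log2 unit below all others, and KO and WT overlapped. The log2 KOWI over WT ratio was -2.15 (SE 0.23, 4.43-fold lower, limma adjusted p = 0.0213), with -2.21 and -2.08 in the 2 replicates, from a probe on mm9 chromosome 10 from 88391888 to 88391947. KOWI over KO was -1.99 (SE 0.23, limma adjusted p = 0.056), and KO over WT was 0.14 and -0.44. In tissue Slc5a8 had 11.40 and 12.62 in KO and 12.18 and 12.98 in WT mice, with KO over WT at -0.78 and -0.36 in the 2 pairs but the groups overlapping (log2 ratio -0.57, limma adjusted p = 0.318).

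The proton-coupled monocarboxylate carriers differed less. Slc16a1, which moves lactate, pyruvate and butyrate, had 13.20 and 11.95 in KOWI, 13.46 and 13.53 in KO and 13.52 and 13.34 in WT organoids. Both KOWI samples were lowest, but KOWI 1 by far less than KOWI 2 (KOWI over WT -0.32 and -1.39, limma adjusted p = 0.225). Slc16a3, the lactate exporter of glycolytic cells, had 15.77 and 15.81 in KOWI, 15.67 and 16.21 in KO and 15.48 and 15.79 in WT organoids, and the groups overlapped. In tissue both stayed near 0, at -0.12 for Slc16a1 and -0.04 for Slc16a3. Bsg, the chaperone that brings both to the membrane, was at -0.02 for KOWI over WT.

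Of the other Slc16 carriers, Slc16a6, whose zebrafish counterpart exports a ketone body from liver cells, rose in KOWI organoids. Its level was 12.05 and 11.80 in KOWI, 11.20 and 10.57 in KO and 11.08 and 9.86 in WT organoids, with both KOWI samples above all others. KOWI over WT gave a log2 ratio of 1.45 (SE 0.26, 2.74-fold higher, limma adjusted p = 0.0483), with 0.97 and 1.94 in the 2 replicates, from the gene's only probe, on mm9 chromosome 11 from 109314058 to 109314117. In tissue its KO over WT ratio was 0.45 and 0.20 (limma adjusted p = 0.341). Slc16a5 had 11.77 and 11.80 in KOWI, 12.58 and 12.74 in KO and 12.54 and 13.23 in WT organoids, with KOWI below all others and KO and WT overlapping (KOWI over WT -1.10, limma adjusted p = 0.0566). Slc16a10, the basolateral carrier of aromatic amino acids, and Slc16a13 were at 0.17 and -0.13 for KOWI over WT.

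Of the carriers of amines, GABA, taurine and creatine, Slc6a8, the creatine carrier, fell in KOWI organoids. Its level was 13.92 and 13.88 in KOWI, 14.38 and 14.41 in KO and 14.91 and 14.97 in WT organoids. The 3 groups were evenly spaced, with replicates closer to each other than to any other group. The log2 KOWI over WT ratio was -1.04 (SE 0.16, 2.06-fold lower, limma adjusted p = 0.0366), and its second probe gave -0.69; the probe used is on mm9 chromosome X from 70927775 to 70927834. KO over WT was -0.53 and -0.56 (limma adjusted p = 0.793). In tissue, where the same probe was among the brightest, KO over WT was -0.02 and -0.01. Slc6a6, the taurine carrier, was at -0.49 for KOWI over WT with outlier spots kept, and Slc6a4, the serotonin carrier, at 0.09, with its second probe at -0.97 with outlier spots kept. Slc5a6, which carries biotin and pantothenate, had 9.86 and 9.68 in KOWI, 10.98 and 10.51 in KO and 10.61 and 10.90 in WT organoids. Both KOWI samples lay below all others (KOWI over WT -0.98, limma adjusted p = 0.0804; KOWI over KO -0.97, limma adjusted p = 0.154).

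**Figure D2:**
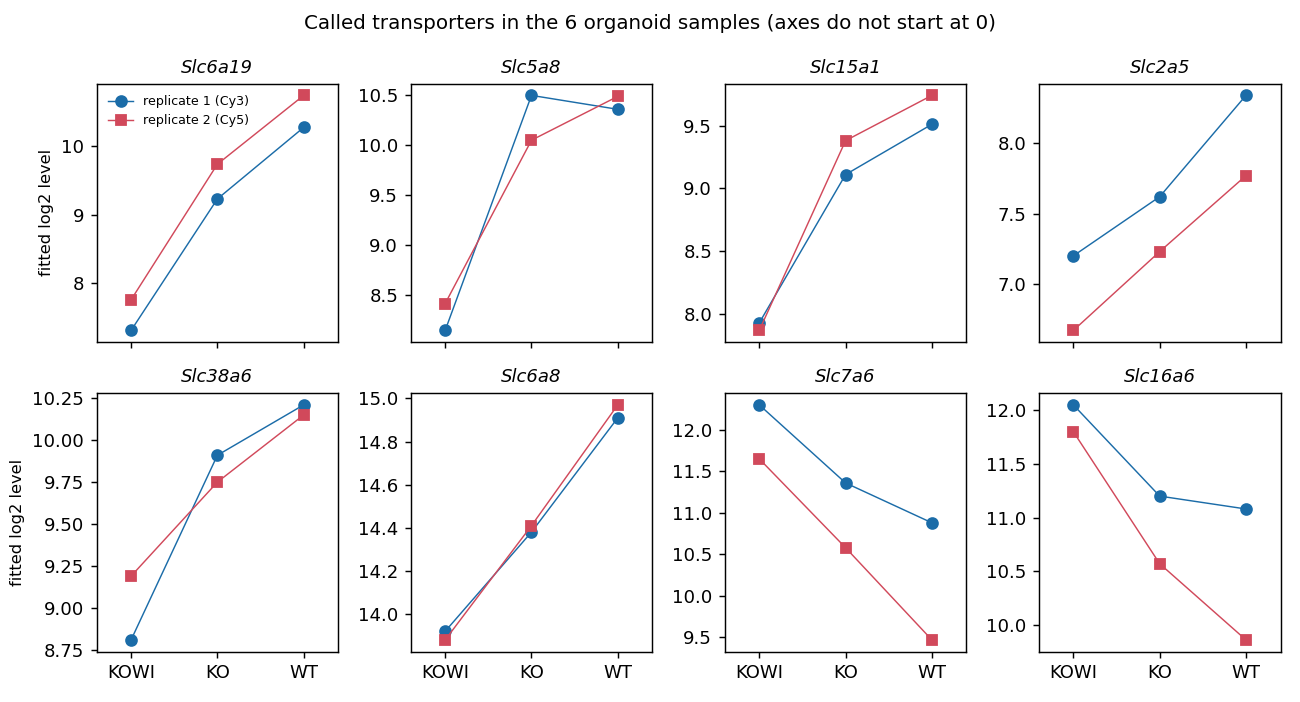
Fitted log2 level (vertical axis, not starting at 0) of the 8 transporters called in KOWI over WT in each organoid sample, with KOWI, KO and WT from left to right; blue circles are replicate 1 (Cy3) and red squares replicate 2 (Cy5), joined within a replicate. KOWI was lowest in both replicates for Slc6a19, Slc5a8, Slc15a1, Slc2a5, Slc38a6 and Slc6a8 and highest for Slc7a6 and Slc16a6.

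Grouped by the side of the cell they serve, the apical absorptive carriers lay below 0 in KOWI organoids. Of 10 such carriers (Slc1a1, Slc3a1, Slc5a1, Slc5a8, Slc6a14, Slc6a19, Slc6a20a, Slc7a9, Slc15a1 and Slc36a1), 9 were fitted in organoids. All 9 ratios were below 0 for KOWI over WT (47.9% of all genes) and 3 were called lower (1.76%). The median was -1.13, against 0.02 over all genes. For KOWI over KO all 9 were below 0 (55.3% of all genes), with 1 called lower (0.229%) and a median of -0.91. For KO over WT 6 of 9 were below 0 (39.1% of all genes), with none called by limma and a median of -0.22. Of 8 basolateral carriers 5 were fitted. For KOWI over WT 1 was called higher (Slc7a6, 2.72% of all genes), 0 lower (1.76%), with a median of 0.02. In tissue 5 of 8 fitted apical carriers were below 0 with a median of -0.38, and 5 of 5 basolateral ones with a median of -0.12. Of all genes 51.2% were below 0 there, and none of these carriers was called by limma. These lists were drawn up with earlier results of these data known, so their counts are descriptions.

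Genes that mark mature colonocytes moved in the same direction. Of 8 markers 7 were fitted, and all 7 were below 0 for KOWI over WT (47.9% of all genes), with a median of -1.46. Called lower were 5 (Muc3, Aqp8, Krt20, Car4 and Guca2a), against 1.76% of all genes. Their mean level was 13.01 and 13.09 in KOWI, 14.34 and 14.32 in KO and 14.79 and 15.05 in WT organoids. For KOWI over KO 6 of 7 were below 0 (55.3% of all genes) and 2 were called lower (0.229%). The 8 general epithelial markers had a median of -0.19 for KOWI over WT, with 6 below 0 and 1 called lower. All 7 goblet cell markers fitted were below 0 for KOWI over WT (median -0.28) and for KOWI over KO (median -0.55), with 0 called by limma. The 6 enteroendocrine markers were all below 0 as well, with a median of -0.61 for KOWI over WT and of -1.32 for KOWI over KO, where the colonocyte median was -0.79; none of the 6 was called by limma. Fewer cells of a type and less RNA per cell cannot be told apart in bulk RNA. The part of the colonocyte, goblet cell and enteroendocrine markers in the transporter ratios was not tested.

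Among proteins that work with these carriers, Anpep, a brush border peptidase that partners Slc6a19, was at -1.79 and -0.76 for KOWI over WT (limma adjusted p = 0.114). The scaffold genes Pdzk1 and Slc9a3r1 were at 0.04 and -0.24.

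The fitted carriers linked to ATF4 lay near 0 for KOWI over WT, while most other fitted genes of that response lay above 0. Of 9 such carriers (Slc1a4, Slc1a5, Slc3a2, Slc6a9, Slc7a1, Slc7a3, Slc7a5, Slc7a11 and Slc38a2) 5 were fitted in organoids, 0 were called by limma for KOWI over WT and their ratios ran from -0.30 to 0.19. All of the fitted carriers but Slc7a3 had bright probes, at a mean log2 intensity of 14 or more, and the part of brightness was not tested. The second, dimmer probe of Slc7a11, fitted without outlier spots, gave 0.74. Of 20 other ATF4-linked genes 15 were fitted, and 14 were above 0 for KOWI over WT, against 5469 of all 10492 genes. Called higher were 3 (2.72% of all genes), and the median was 0.60 against 0.02. The called genes were Psat1 (serine synthesis, 1.12), Mthfd2 (mitochondrial folate metabolism, 1.03) and Vldlr (a lipoprotein receptor, 1.55), all 3 of them lost with outlier spots kept (ratios 0.80, 1.03 and 1.07, limma adjusted p = 0.212, 0.0843 and 0.193). Atf4 itself was at 1.37 and 0.66 (limma adjusted p = 0.104). For KO over WT 14 of 15 were above 0 too, against 6391 of all 10492 genes, with a median of 0.40 against 0.05. None was called by limma there, and in tissue the median was 0.04. The difference between the lists was not tested.

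**Figure D3:**
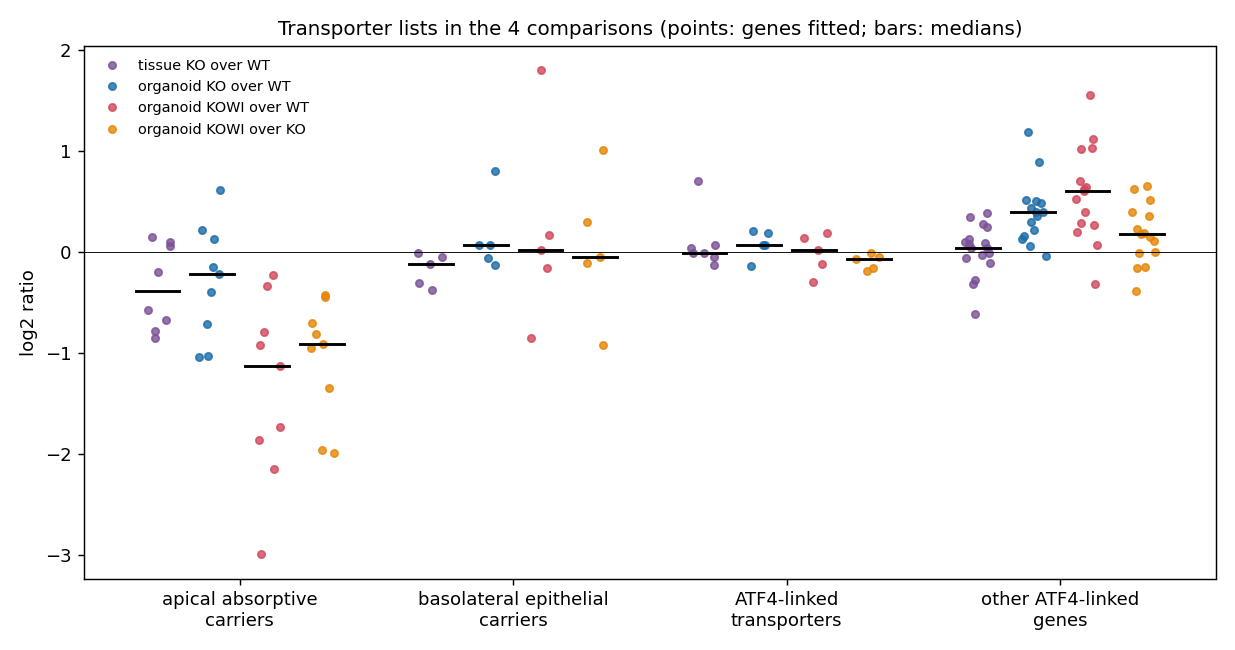
Log2 ratios (vertical axis) of the genes fitted in 4 lists, in the comparisons tissue KO over WT (purple), organoid KO over WT (blue), KOWI over WT (red) and KOWI over KO (orange); each point is a gene and each bar the median. The 9 apical carriers all lie below 0 for KOWI over WT (median -1.13) and for KOWI over KO (median -0.91), whereas the medians of the basolateral and ATF4-linked carriers lie between -0.12 and 0.07.

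In tissue 2 months after injury, no transporter differed between KO and WT mice by the test. Of the 50 ratios 34 had the same sign in both mouse pairs, against 66.9% of all genes. Of the transporters, 3, among them Slc2a4 and Slc2a3, had ratios over 0.5 in both pairs, 3.2% of all genes doing so, and 3 had ratios under -0.5 in both, against 1.64%. Slc2a4, the insulin-regulated glucose carrier of muscle and fat, had levels of 13.32 and 13.49 in KO and 12.33 and 12.72 in WT mice. Both KO mice lay above both WT mice, and the log2 ratio was 0.88 (SE 0.09, limma adjusted p = 0.245), but its second probe gave 0.04. Slc2a3, the glucose carrier of neurons and many immune cells, had 8.77 and 9.21 in KO and 8.25 and 8.66 in WT mice (log2 ratio 0.54, limma adjusted p = 0.245). The 8 skeletal muscle markers were all above 0 with a median of 0.41, and their mean level was 15.25 and 16.41 in KO and 14.62 and 16.03 in WT mice. All 6 fibroblast markers were above 0 too (median 0.13), as were the 3 adipocyte markers fitted (median 0.57), and 2 of 3 macrophage markers (median 0.25, with Adgre1 at 1.16). Their part in these ratios was not tested.

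On the other side, Slc36a1 had 8.72 and 9.66 in KO and 9.80 and 10.26 in WT mice. Both KO mice lay below both WT mice (log2 ratio -0.85, limma adjusted p = 0.274), but the second probe gave 0.04. Slc16a5 had 9 and 9.45 in KO and 9.72 and 10.07 in WT mice, without overlap (log2 ratio -0.67, limma adjusted p = 0.245). Slc16a12, which carries creatine, had 8 and 8.75 in KO and 9.49 and 9.08 in WT mice, the lowest mean ratio of all transporters at -0.91 but with pairs of -1.5 and -0.33. Slc15a1 was at -0.85 and -0.49, and Slc2a13 at -0.85 and -0.45. All 8 colonocyte markers were below 0 in tissue (median -0.23), with mean levels of 15.12 and 15.27 in KO and 15.42 and 15.47 in WT mice. So were all 8 general epithelial markers (median -0.12), all 7 goblet cell markers fitted (median -0.17) and all 6 enteroendocrine markers (median -0.59), against 51.2% of all genes. Their part was likewise not tested. When arrays were centred on their median in place of loess, 10 transporters passed, 2 higher, Slc2a4 among them, and 8 lower (Slc36a1, Slc15a1, Slc16a12, Slc5a8, Slc7a9, Slc2a13, Slc16a5 and Slc5a3), as did 855 of all 12624 genes. Of the other carriers found in tissue alone, Slc16a9 was at 0.10 and Slc38a4 at 0.01. The mouse pairs went opposite ways for Slc15a3 (-0.36 and 0.54) and for the choline carrier Slc5a7 (0.47 and -0.41).

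**Figure D4:**
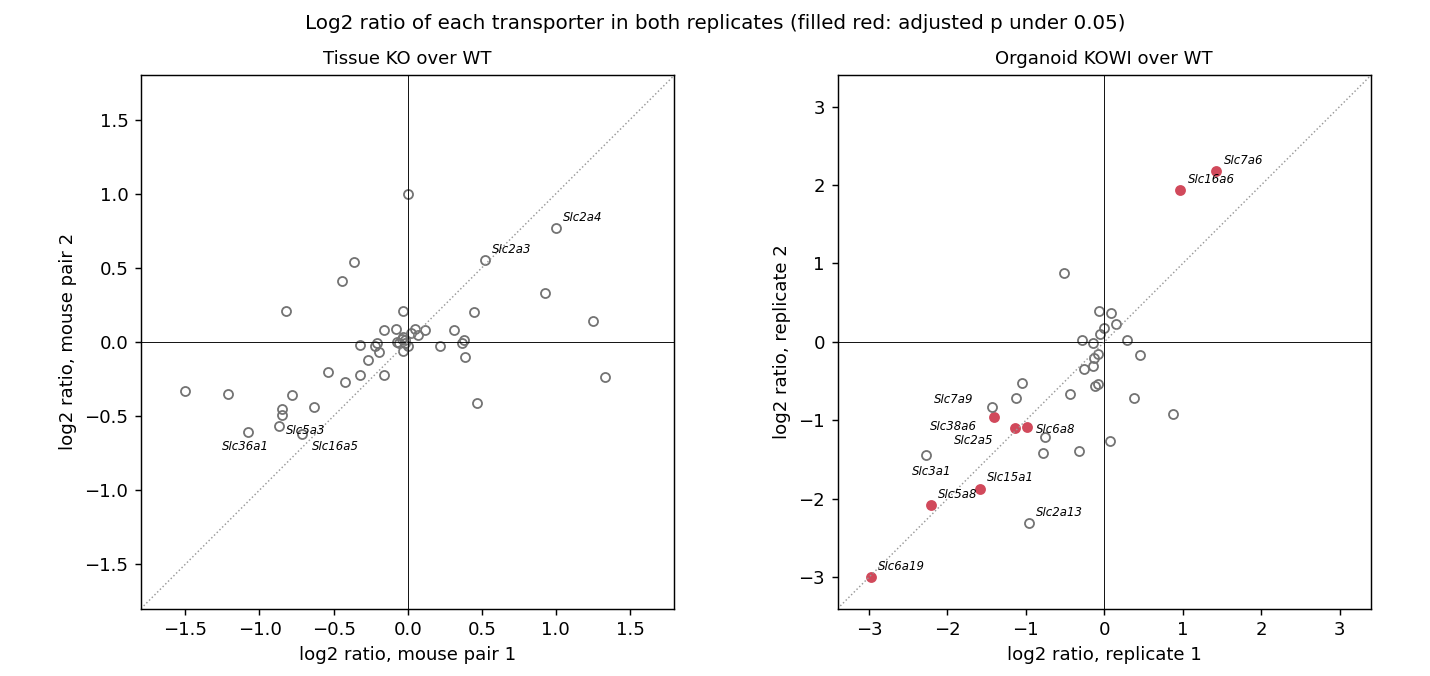
Log2 ratio of each transporter in replicate 1 (horizontal axis) against replicate 2 (vertical axis), for tissue KO over WT (left, 49 transporters) and organoid KOWI over WT (right, 36 transporters fitted with both replicates); filled red points passed the test and the dotted line marks equal ratios. In tissue 34 of all 50 fitted transporters have the same sign in both pairs and none passed, and in organoids 27 of 36 have the same sign, against 62.8% of all genes, with Slc6a19 at -2.98 and -3.

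The KO over WT ratio was set against itself between tissue and organoids for the 31 transporters fitted in both. The difference passed the test for 0 of them, and for 0 of all 9022 genes, by limma, with 4 transporters at an unadjusted p under 0.05. The smallest adjusted p among transporters was 0.207, for Slc5a3, at -0.87 and -0.57 in the tissue pairs and 0.50 and 0.50 in the organoid replicates. With outlier spots kept, its organoid levels were 9.24 and 10.16 in KO and 9.73 and 9.16 in WT. The organoid replicates then went opposite ways, with a mean ratio of 0.25.

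Bright probes gave smaller median ratios than dim ones. The 13 transporters at a mean log2 intensity of 14 or more in tissue had a median absolute log2 ratio of 0.04, against 0.31 for the other 37, and over all genes these medians were 0.04 and 0.15. For KOWI over WT the medians were 0.17 for 8 bright transporters and 0.55 for the other 31, against 0.16 and 0.30 over all genes. Slc2a1, Slc3a2, Slc1a4 and Slc6a9, all near 0, are among the bright ones, and whether brightness has a part in their ratios was not tested. For 24 transporters more than 1 probe was above background, and the probes differed by more than 0.5 for 5 of them in tissue and for 9 in KOWI over WT. The 20 transporters lost to outlier spots in organoids (Slc1a4, Slc1a5, Slc2a1, Slc2a4, Slc2a8, Slc5a2, Slc5a9, Slc6a3, Slc6a6, Slc6a14, Slc7a5, Slc7a8, Slc7a11, Slc7a14, Slc15a4, Slc16a7, Slc16a11, Slc38a1, Slc38a7 and Slc38a8) had, with those spots kept, KOWI over WT ratios from -1.54 to 0.66, 13 of them below 0, 17 within 0.5 of 0 and 0 called (2 at an unadjusted p under 0.05, limma). The 4 lost in tissue had KO over WT ratios between -0.17 (Slc7a8) and 0.04 (Slc38a8) with the spots kept.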

How the data were processed

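RNA of 2 KO and 2 WT colon samples (4 arrays) and of 2 KOWI, 2 KO and 2 WT organoid samples (6 arrays in a loop) was measured. Spots were extracted by the authors with Agilent Feature Extraction 12.2.0.7 under protocol GE2_1200_Dec17, design 074809, with probe positions on mm9, per the file headers. The deposited mean and background intensity of each spot was not normalized. The deposited log10 ratio of Cy5 over Cy3 was background-subtracted and dye-normalized, per the file headers. The deposited log2 ratios of the value table (limma is named in the submitters' processing notes) had slopes of 0.970 to 1.004 on the scanner ratios and the same direction; their centring is unknown. For 1 tissue array the title and the Cy3 source name give different replicate numbers; the title was followed.

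From the intensities, limma 3.58.1 in R 4.3.3 applied normexp with an offset of 50 and loess within arrays; 3671 control spots of 62976 and outlier spots were left out, and spots of a probe were averaged. A gene was read from its brightest probe and fitted if that probe was well above background in all 4 channels of at least 1 group. Outlier spots were counted for this filter. No probe of a transporter was saturated. Tissue dye swaps were averaged per mouse pair and the 2 pair ratios tested against 0. Organoid ratios were solved for 6 sample values by least squares and tested by group with replicate number, the same as dye, as a block. The 2 mice of a tissue pair shared an array, and deviations of same-numbered mice correlated at 0.753; in organoids same-numbered samples correlated at 0.219 (WT and KO), 0.169 (WT and KOWI) and -0.017 (KO and KOWI). The number of arrays limits the precision. P-values were adjusted over all genes by Benjamini-Hochberg, with a threshold of 0.05, and the fits were tested on simulated data. Named are the called transporters, the 4 highest and 4 lowest ratios of each comparison, a list of well-known carriers and, for completeness, other fitted members named after their values were seen. Members, lists and motifs were chosen with earlier results of these data known. Alternatives were other background, centring, filter, outlier, probe and replicate choices, the value table, and 1 sample left out at a time; those that keep outlier spots together with another change were added after seeing the data. Promoters are from RefSeq, GRCm38.p6. Some transporters and a partner gene that enter the counts are not reported here by name or drawn.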

Additional observations from a re-analysis of the deposited data

How the results depend on the processing

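The main counts of called transporters were 0 in tissue, 0 for KO over WT, 8 for KOWI over WT and 1 for KOWI over KO, and no named ratio that was called changed sign under any alternative run. In tissue median centring gave 10 calls (2 higher, 8 lower) and arrays taken as independent, which counts dye swaps as replicates, gave 8 (3 higher, 5 lower). For KO over WT in organoids arrays taken as independent gave 5. For KOWI over WT, 3 were called from the scanner software ratio, 3 with median centring, 0 from the deposited value table, 4 without a filter on dim probes, 4 with a stricter filter, 1 with outlier spots kept (1 too when adjusted over the genes of the fit without them), 18 with arrays taken as independent and 5 with no replicate block; leaving out 1 sample gave 0 to 11, and with outlier spots kept as well 0 each time. For KOWI over KO, 0 were called from the scanner ratio, with median centring, from the value table, under either filter change and with outlier spots kept (0 too when adjusted over the same genes), 2 with the mean over all probes and 18 with arrays taken as independent; leaving out 1 sample gave 0 to 4, and 0 with outlier spots kept. With no replicate block 1 was called there, Slc5a8 in place of Slc6a19. Pairing changed no count in tissue or for KO over WT. Slc6a19 was called for KOWI over WT in 13 of 15 alternatives, with ratios from -4.37 to -2.85, Slc5a8 in 11 of 16, Slc7a6 in 7 of 16, Slc15a1 in 7 of 15, Slc38a6 in 6 of 16, Slc2a5 in 6 of 15, and Slc16a6 and Slc6a8 in 4 of 16 each; Slc6a19 was called for KOWI over KO in 6 of 15. Slc6a19, Slc15a1 and Slc2a5 could not be fitted under the stricter filter, which asked that every group be above background in all channels, so their totals are 15. They entered the reported fit through KO or WT organoids only. Over all named ratios and alternatives 810 of 1089 kept their side, and of 140 results for called transporters 76 lost the call. Over all genes KOWI over WT had 470 calls in the fit reported, 6 with outlier spots kept, 4 from the value table, 123 from the scanner ratio, 170 with median centring, 181 without a filter, 307 with a stricter filter and 3702 with arrays taken as independent; the causes were not tested. Dim probes are limited by background: in KOWI organoids Slc2a5 was well above it in 0 of 4 channels, Slc6a20a and Slc7a10 in 1, Slc6a19 and Slc2a13 in 2 and Slc15a1 in 3.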
